A study of Mus musculus with 23 samples.

Results

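Spp1 and 7 genes of the lipid-associated macrophage state were followed through skeletal muscle and fat of mice with mutations in Bub1b, the gene of the mitotic checkpoint protein BubR1. Spp1 was chosen by its measured level in these same libraries, which was higher in mutant than in WT muscle, and Gpnmb, Trem2, Lgals3, Cd9, Mmp12, Itgax and Atp6v0d2 because they mark the same macrophage state elsewhere. The 8 genes were taken by symbol from the 24062 genes of the count table, and all 8 passed the filter on low counts in both tissues. The levels in mutant and wild-type muscle are therefore given as a description without a test, while the values in fat were not used in the choice. The comparisons of the 2 mutant genotypes in muscle and of the 2 tissues were not used as such. For Spp1 they do share the muscle libraries whose levels chose it.

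Bulk poly(A) RNA sequencing was done on gastrocnemius muscle and on a fat depot labelled IAT from mice 8 to 10 months old on a mixed 129Sve and C57BL/6 background. HL1002P mice carry a hypomorphic H allele together with the missense allele (4 muscle and 4 fat libraries), HH mice carry the hypomorphic allele on both chromosomes (3 muscle and 4 fat libraries), and WT mice carry neither (4 muscle and 4 fat libraries). Both alleles are present in the germ line, so that every cell type of a mutant tissue carries them and no cell type is targeted. By sex-linked transcripts each group holds libraries of both sexes, hence of at least 2 animals. The labels do not say whether every library of a group came from a different animal, and p-values measure the spread between these libraries. Muscle and fat RNA were prepared with different kits, so that the tissue and the kit cannot be told apart.

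Lipid-associated macrophages form in fat, atherosclerotic plaque, injured muscle and other tissues where macrophages take up lipid and cell debris. Their lipid-sensing receptor TREM2 signals through the adaptor TYROBP, and the state is marked by lysosomal, lipid-handling and matrix-degrading genes. Spp1 encodes osteopontin, a secreted ligand of integrins and CD44 that macrophages, activated myoblasts, osteoblasts and several epithelia also make. Gpnmb encodes a lysosomal and cell-surface glycoprotein, Lgals3 the sugar-binding galectin-3, Cd9 a tetraspanin, Mmp12 macrophage elastase, Itgax the integrin chain CD11c, which dendritic cells also carry, and Atp6v0d2 a subunit of the proton pump that acidifies lysosomes in macrophages and osteoclasts. Lgals3 and Cd9 are made by many cell types outside the macrophage lineage.

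The members lie on 7 chromosomes of the GRCm38 (mm10) build, each named here by its RefSeq position. Spp1 lies at chr5:104435111-104441053 and Gpnmb at chr6:49036518-49058182, both on the plus strand. Trem2 lies at chr17:48346401-48352276, Lgals3 at chr14:47373860-47386167, Mmp12 at chr9:7344397-7360461 and Itgax at chr7:128129526-128150657, all on the plus strand. Cd9 lies at chr6:125460266-125494760 and Atp6v0d2 at chr4:19876838-19922566, both on the minus strand. The library kit does not keep the strand, so reads cannot be assigned by strand where genes overlap. Mmp12 shares 2.2% of its exon bases with Mmp1b on the opposite strand, Cd9 shares 10.7% with Gm26728 on the opposite strand, and Spp1 shares 18.8% with Gm42793 on its own strand.

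RefSeq (GRCm38.p6) promoters were at hand for 7 of the 8 members, with 9 start sites between them. Promoters of Gpnmb, Trem2, Lgals3 and Mmp12 are shown because these genes were lower together in mutant fat, and that of Spp1 because it did not move with them. Each stretch is on the plus strand and runs from 150 bases before the start site to 30 bases after it, with motif matches in capitals. The Gpnmb stretch is chr6:49036368-49036547, that of Trem2 chr17:48346251-48346430, that of Lgals3 chr14:47373710-47373889, that of Mmp12 (its start site 2) chr9:7347224-7347403 and that of Spp1 (its start site 1) chr5:104434961-104435140.
Gpnmb: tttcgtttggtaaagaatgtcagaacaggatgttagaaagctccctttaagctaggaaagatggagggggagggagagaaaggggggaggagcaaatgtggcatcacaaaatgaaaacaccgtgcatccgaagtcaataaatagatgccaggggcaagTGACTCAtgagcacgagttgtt
Trem2: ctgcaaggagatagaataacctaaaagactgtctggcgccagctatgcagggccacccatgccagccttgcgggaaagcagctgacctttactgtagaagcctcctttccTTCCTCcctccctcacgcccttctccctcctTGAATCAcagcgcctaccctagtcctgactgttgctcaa
Lgals3: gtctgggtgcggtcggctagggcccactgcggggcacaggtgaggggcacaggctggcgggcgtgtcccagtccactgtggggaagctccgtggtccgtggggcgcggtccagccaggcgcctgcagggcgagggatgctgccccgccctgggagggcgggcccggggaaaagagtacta
Mmp12: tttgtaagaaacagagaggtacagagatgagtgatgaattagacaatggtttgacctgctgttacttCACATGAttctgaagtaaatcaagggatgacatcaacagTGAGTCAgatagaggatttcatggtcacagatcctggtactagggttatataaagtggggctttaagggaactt
Spp1: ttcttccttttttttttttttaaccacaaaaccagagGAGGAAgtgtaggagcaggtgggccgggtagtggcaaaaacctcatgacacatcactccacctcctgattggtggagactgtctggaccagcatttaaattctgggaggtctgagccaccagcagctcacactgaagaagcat
In capitals are the AP-1 core TGANTCA in Gpnmb, Trem2 and Mmp12, the PU.1 core GAGGAA (read as TTCCTC on the other strand) in Trem2 and Spp1, and the M-box TCATGTG (read as CACATGA) of the MITF and TFEB family in Mmp12, and Lgals3 held none of them. Both strands of the full window, 250 bases before to 50 after the start, were searched, and no match overlapped another. The AP-1 core was in 4 of the 9 member promoters (4 of 7 genes, Itgax being the fourth), against 7.81% of 32851 promoters. The PU.1 core was in 3 of 9, against 28.3% of promoters, the M-box in 1 of 9, against 3.77%, and the E-box CACGTG in 0 of 9, against 7.15%. A match describes letters in this window and not a bound site.

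The libraries held 34.1 to 55.3 M counts in muscle and 22.6 to 58.8 M in fat. The muscle fibre genes Acta1 and Ckm marked the muscle libraries, and the fat cell genes Adipoq and Plin1 the fat libraries: Adipoq averaged 1387 CPM in HL1002P, 1484 CPM in HH and 3029 CPM in WT fat. Bub1b averaged 0.210 ± 0.0424 CPM in HL1002P, 0.395 ± 0.109 CPM in HH and 0.83 ± 0.10 CPM in WT muscle (SD, n = 4, 3 and 4). In fat it averaged 17.2 ± 7.57 CPM in HL1002P, 10.2 ± 3.51 CPM in HH and 9.88 ± 1.99 CPM in WT (SD, n = 4 each). Fat libraries differed in what else they held. The summed level of 15 B and T cell markers was 1519 to 4016 CPM in HL1002P, 1922 to 3628 CPM in HH and 91.4 to 755 CPM in WT fat, and that of 6 lymph node stroma markers was 1093 to 1413 CPM in HL1002P, 801 to 1223 CPM in HH and 17.9 to 359 CPM in WT fat. Of the 12 fat libraries, 3 held over 1000 CPM of Acta1 and 5 held over 20 CPM of the epithelial gene Epcam. By Xist, 1 HL1002P, 1 HH and 2 WT fat libraries and 2 HL1002P, 1 HH and 2 WT muscle libraries came from females.

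In fat, 5 of the 8 members were lower in HL1002P than in WT, none was higher, and Spp1 was not among the 5. Levels are CPM (counts scaled to a common library size) on library sizes scaled by the trimmed mean of M values. Mmp12 differed most, with a log2 fold change of -3.12 ± 0.66 (SE; adjusted p = 0.0102, edgeR quasi-likelihood test with Benjamini-Hochberg adjustment over 16266 genes, the test behind every adjusted p in this text). Of all genes tested in that comparison 31.8% passed, 17.3% higher and 14.5% lower. The members had a median log2 fold change of -1.36, against -0.07 over all genes tested. In HH fat the same 5 members were lower than in WT, with 20.8% of all genes past the test, 12.3% higher and 8.59% lower, and the members' median was -1.51 against -0.06 over all genes. Both comparisons use the same WT libraries, so that they are not independent of each other. In bulk tissue, fewer cells of a type and less RNA per cell cannot be told apart.

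**Figure D1:**
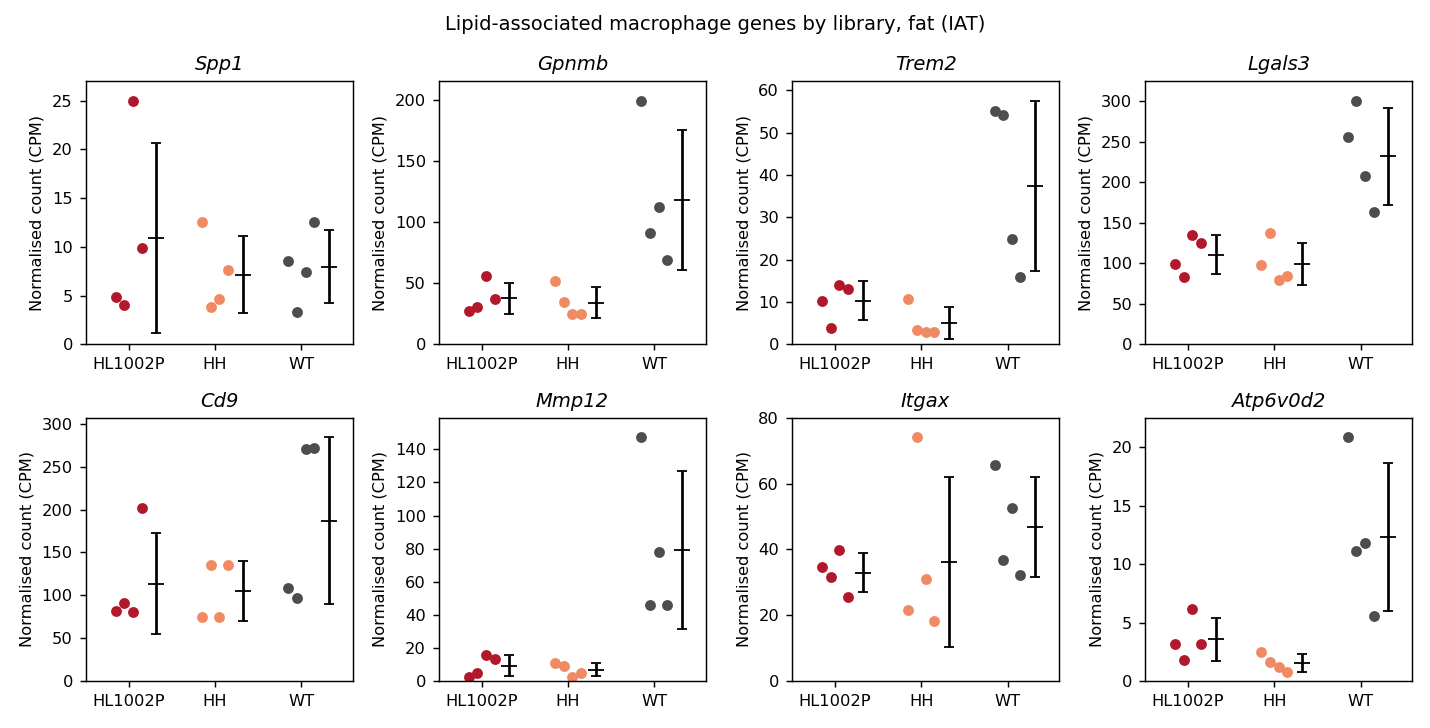
Level in CPM of each of the 8 members in the 12 fat libraries, with 1 point per library, 4 libraries per genotype, and the bar giving the mean ± SD. Gpnmb, Trem2, Lgals3 and Mmp12 were lower in all 8 mutant libraries than in any of the 4 WT libraries, whereas Spp1 overlapped between all genotypes.

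The receptor of the state, Trem2, had 10.2, 3.74, 13.95 and 13.02 CPM in HL1002P fat and 10.7, 3.31, 3.004 and 2.94 CPM in HH fat, against 55.1, 54.2, 24.9 and 15.9 CPM in WT fat. Every mutant library lay below the lowest WT library. The log2 fold change was -1.87 ± 0.57 in HL1002P (adjusted p = 0.0298) and -2.90 ± 0.59 in HH (adjusted p = 0.0128). The HL1002P call of Trem2 was kept in 3 of 8 fits that left out 1 library: adjusted p came to 0.0803 without WT replicate 1, 0.0735 without WT replicate 2, 0.0762, 0.0763 and 0.0540 without HL1002P replicates 1, 2 and 3.

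The secreted elastase Mmp12 had 2.44, 4.97, 15.6 and 13.3 CPM in HL1002P fat and 10.9, 8.75, 2.38 and 4.92 CPM in HH fat, against 147, 46.0, 77.8 and 45.9 CPM in WT fat. The lowest WT library was above every mutant library, and WT replicate 1 stood above the other WT libraries. In HH fat the log2 fold change was -3.55 ± 0.68 (adjusted p = 0.0119).

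The lysosomal glycoprotein gene Gpnmb had 27.5, 30.2, 56.1 and 36.8 CPM in HL1002P fat and 52.0, 34.3, 24.9 and 24.6 CPM in HH fat, against 200.0, 91.6, 113 and 69.1 CPM in WT fat. No mutant library reached the lowest WT library. Relative to WT the log2 fold change was -1.65 ± 0.36 in HL1002P (adjusted p = 0.011) and -1.80 ± 0.36 in HH (adjusted p = 0.0128). WT replicate 1 again held the most.

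The proton pump subunit gene Atp6v0d2 had 3.15, 1.77, 6.17 and 3.16 CPM in HL1002P fat and 2.52, 1.63, 1.17 and 0.793 CPM in HH fat, against 20.9, 11.1, 11.8 and 5.54 CPM in WT fat. HL1002P replicate 3 was above WT replicate 4, and the HH libraries were all below the WT libraries. These levels gave a log2 fold change of -1.79 ± 0.49 in HL1002P (adjusted p = 0.0218) and -3.003 ± 0.52 in HH (adjusted p = 0.0113). The HL1002P call was lost without WT replicate 1 (adjusted p = 0.0680), HL1002P replicate 1 (0.0649) or HL1002P replicate 2 (0.0672).

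The galectin-3 gene Lgals3 had 98.4, 83.3, 135 and 125 CPM in HL1002P fat and 97.5, 137, 79.7 and 83.6 CPM in HH fat, against 256, 301, 207 and 163 CPM in WT fat. All mutant libraries lay below the WT libraries, and HL1002P and HH overlapped. Lgals3 differed from WT by a log2 fold change of -1.07 ± 0.24 in HL1002P (adjusted p = 0.0111) and -1.22 ± 0.24 in HH (adjusted p = 0.0122).

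Without overlap, 4 of 8 members were lower in HL1002P than in WT fat, as were 12.4% of all genes, and 5 of 8 were lower in HH than in WT fat, as were 10.9% of all genes. The HL1002P calls of Gpnmb, Lgals3 and Mmp12 and all 5 HH calls were kept in 8 of 8 fits without 1 library.

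Itgax, Cd9 and Spp1 did not pass in either comparison. Itgax had 34.6, 31.7, 40.0 and 25.5 CPM in HL1002P fat and 21.7, 74.1, 30.9 and 18.3 CPM in HH fat, against 65.6, 36.7, 52.5 and 32.4 CPM in WT fat. HH replicate 2 was the highest of all 12 libraries and the genotypes overlapped, with log2 fold changes of -0.51 ± 0.40 in HL1002P (adjusted p = 0.339) and -0.37 ± 0.40 in HH (adjusted p = 0.508). With the macrophage markers as a covariate Itgax passed in HL1002P (-0.79 ± 0.26, adjusted p = 0.049), which made 6 of 8 members.

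Cd9 had 82.0, 90.8, 80.2 and 202 CPM in HL1002P fat and 74.3, 136, 75.2 and 136 CPM in HH fat, against 108, 97.3, 271 and 272 CPM in WT fat. In each genotype the libraries split into low and high ones, and the 5 highest were the same 5 libraries that held over 20 CPM of Epcam. These were HL1002P replicate 4 (129.8 CPM of Epcam), HH replicates 2 and 4 (59.4 and 48.9 CPM) and WT replicates 3 and 4 (225 and 166 CPM), and all but HH replicate 2 are from females by Xist. Cd9 had a log2 fold change of -0.72 ± 0.43 in HL1002P (adjusted p = 0.203) and -0.83 ± 0.43 in HH (adjusted p = 0.166). Without those 5 libraries, an alternative chosen after the data were seen, it was -0.45 ± 0.14 in HH (adjusted p = 0.0478).

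Spp1 had 4.82, 3.98, 25.0 and 9.89 CPM in HL1002P fat and 12.6, 3.79, 4.63 and 7.60 CPM in HH fat, against 8.59, 3.33, 7.44 and 12.5 CPM in WT fat. One library, HL1002P replicate 3, stood above the rest, and all 3 genotypes overlapped. Against WT the log2 fold change was 0.46 ± 0.61 in HL1002P (adjusted p = 0.572) and -0.16 ± 0.61 in HH (adjusted p = 0.865), and without HL1002P replicate 3 the first came to -0.32. At these standard errors a change of the size of that in Lgals3 was not detectable for Spp1.

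No general macrophage marker was lower past the test. Of 18 markers, 2 were higher in HL1002P fat, Lyz2 (log2 fold change 1.12, adjusted p = 0.0238) and Aif1 (1.14, adjusted p = 0.0143), 1 was higher in HH fat, Aif1 (0.86, adjusted p = 0.0453). The list's median log2 fold change was 0.27 in HL1002P and 0.54 in HH, and its summed level was 1789 to 4125 CPM in HL1002P, 2179 to 4818 CPM in HH and 2051 to 2375 CPM in WT fat. Tyrobp, the adaptor that carries the TREM2 signal, averaged 113 ± 31.7 CPM in HL1002P, 112 ± 31.0 CPM in HH and 87.9 ± 16.6 CPM in WT fat (SD, n = 4 each; adjusted p = 0.280 for HL1002P and 0.314 for HH). Cd68, a lysosomal macrophage protein, averaged 72.1 ± 22.5 CPM in HL1002P, 83.6 ± 24.4 CPM in HH and 77.2 ± 20.5 CPM in WT fat (adjusted p = 0.798 for HL1002P and 0.783 for HH). Neither Emr1, the symbol the table uses for Adgre1 (the F4/80 antigen), nor Mrc1, the mannose receptor, passed in either genotype (adjusted p = 0.267 for HL1002P and 0.552 for HH for Emr1, and 0.638 for HL1002P and 0.771 for HH for Mrc1).

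Set against the mean log2 CPM of those 18 markers in each library, a measure added after the data were seen, Gpnmb, Mmp12, Lgals3 and Atp6v0d2 were below WT without overlap in both mutant genotypes. The difference in this relative level from WT was -1.81 in HL1002P and -2.13 in HH for Gpnmb, -3.51 in HL1002P and -3.96 in HH for Mmp12, -1.27 in HL1002P and -1.59 in HH for Lgals3, and -1.98 in HL1002P and -3.32 in HH for Atp6v0d2. For Trem2 it was -2.06 in HL1002P, with overlap, and -3.33 in HH, without. For Itgax it was -0.68 in HL1002P, without overlap, and -0.91 in HH, with overlap, and for Cd9 -0.89 in HL1002P and -1.10 in HH, both with overlap. The B and T cell and lymph node stroma markers were higher in the mutant libraries. The part of lymph node cells in the mean of the 18 markers was not tested. A relative level is therefore not a level per macrophage of the fat. The smallest two-sided p that an exact permutation test of 4 against 4 libraries allows is 0.0286. Adjusted over the 24 values tested it became 0.0686, so that no value passed. The adjusted value depends on which values are tested together, and the 24 include those between HL1002P and HH. For Spp1 the difference was -0.01 in HL1002P and -0.54 in HH (exact permutation p = 1 and 0.514).

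**Figure D2:**
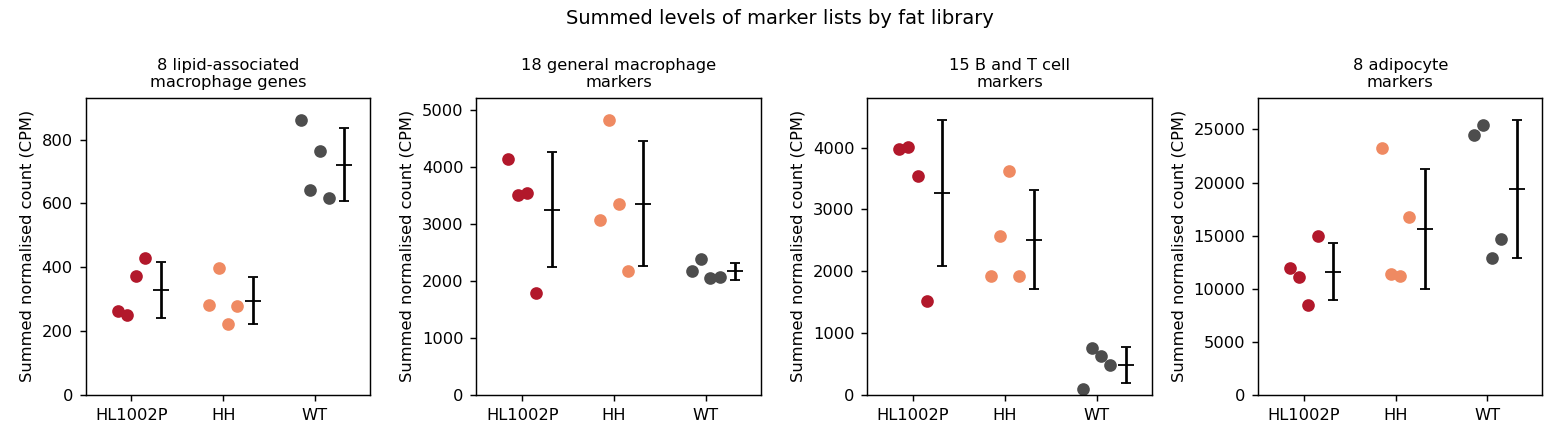
Summed level in CPM of the 8 members, 18 macrophage markers, 15 B and T cell markers and 8 adipocyte markers in each fat library, with 4 libraries per genotype. The members summed to 222 to 429 CPM in the mutant libraries and to 616 to 861 CPM in WT, the macrophage markers overlapped between genotypes, and the B and T cell markers were higher in every mutant library.

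The B and T cell markers moved with the members in the opposite direction: 15 of 15 were higher in HL1002P fat (median log2 fold change 2.38) and 12 of 15 in HH fat (2.17). Of 6 lymph node stroma markers, 5 were higher in each mutant genotype. When the mean log2 CPM of the B and T cell markers entered the model as a covariate, 0 genes and none of the members passed in HL1002P or HH fat. The 5 members kept their sign in that fit, with log2 fold changes in HL1002P of -0.57 for Gpnmb, -0.96 for Trem2, -0.90 for Lgals3, -1.41 for Mmp12 and -0.81 for Atp6v0d2. In HH they were -0.86 for Gpnmb, -2.12 for Trem2, -1.07 for Lgals3, -2.04 for Mmp12 and -2.16 for Atp6v0d2. The adjusted p of Gpnmb was 0.999 in HL1002P and 0.954 in HH. The markers' summed levels did not overlap between mutant and WT fat, so that genotype and lymphocyte content cannot be told apart in this fat.

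Other genes reported for the lipid-associated state went both ways. Of 22, 5 were higher and 10 lower in HL1002P fat, with a median of -0.74, and 2 were higher and 6 lower in HH fat, with a median of -0.70. Cst7, a cystatin of lysosomes, was higher in HL1002P (2.06, adjusted p = 0.00779) and in HH (1.94, adjusted p = 0.0122), at 23.2 ± 6.19 and 21.4 ± 6.68 CPM against 5.58 ± 2.39 CPM in WT (SD, n = 4 each). The lipid droplet gene Plin2 was lower in HL1002P (-1.56, adjusted p = 0.0125) and in HH (-1.59, adjusted p = 0.0165), and the fatty acid transporter gene Cd36 was lower in HL1002P (-1.71, adjusted p = 0.0187). Ch25h, which makes an oxysterol, was higher in HH (1.92, adjusted p = 0.0113). Fat cells also express Plin2 and Cd36, and the summed level of 8 adipocyte markers was 8494 to 14982 CPM in HL1002P, 11188 to 23228 CPM in HH and 12869 to 25449 CPM in WT fat; its part in these values was not tested.

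Of 13 genes of the Trem2 pathway, the receptor included, 9 were higher in HL1002P fat and 7 in HH fat, and the single lower gene was Trem2 in both. The median log2 fold change of the list was 1.49 in HL1002P and 1.30 in HH. The kinase gene Syk was higher by 2.03 ± 0.31 in HL1002P (adjusted p = 0.00775) and 1.91 ± 0.31 in HH (adjusted p = 0.0113), and the phospholipase gene Plcg2 by 1.97 ± 0.36 in HL1002P (adjusted p = 0.0078). Treml2, a related receptor, was higher by 2.72 in HL1002P (adjusted p = 0.0123) and 2.43 in HH (adjusted p = 0.0237). Clu, which encodes clusterin, a lipoprotein known to bind TREM2, was higher by 1.87 in HH (adjusted p = 0.0241). B cells also express Syk, Plcg2 and Treml2, and the B and T cell markers moved the same way; their part was not tested gene by gene.

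Of 9 receptor genes of osteopontin, 3 were higher and 3 lower in HL1002P fat, and 2 were higher and 3 lower in HH fat. The integrin chain Itga4, abundant on lymphocytes, was higher by 1.99 ± 0.26 in HL1002P (adjusted p = 0.00775) and 1.52 in HH (adjusted p = 0.0113). Itgb5, a partner of the alpha V chain, was lower by a log2 fold change of -1.52 ± 0.34 in HL1002P (adjusted p = 0.0113) and -1.28 in HH (adjusted p = 0.0259). Cd44 averaged 102 ± 25.0 CPM in HL1002P, 84.2 ± 21.2 CPM in HH and 60.2 ± 11.2 CPM in WT fat (SD, n = 4 each), a log2 fold change of 0.76 ± 0.23 in HL1002P (adjusted p = 0.028) and 0.48 ± 0.22 in HH (adjusted p = 0.132).

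In the gene families of the members, changes went both ways. Among 21 tested subunits of the vacuolar proton pump, 6 were lower in HL1002P and 4 in HH fat and none was higher; the lowest after Atp6v0d2 were Atp6v0e2 in HL1002P (-1.24, adjusted p = 0.0423) and Atp6v0a1 (-1.21, adjusted p = 0.0118, in HL1002P and -1.07, adjusted p = 0.0238, in HH). Atp6v0d1, the widely expressed counterpart of Atp6v0d2, averaged 104 CPM in HL1002P, 108 CPM in HH and 149 CPM in WT fat, a log2 fold change of -0.52 ± 0.18 in HL1002P (adjusted p = 0.050, just under 0.05 before rounding). Among the metalloproteinases and their inhibitors, Mmp2 (gelatinase A) was lower in HL1002P (-1.28, adjusted p = 0.0141), and Timp1 in HH (-0.90, adjusted p = 0.0347). Of 9 galectin genes, Lgals3bp, a ligand of galectin-3, was lower in both (-0.94, adjusted p = 0.0232, in HL1002P and -0.84, adjusted p = 0.0446, in HH). The leukocyte tetraspanins Cd37 and Cd53 were higher by 2.39 and 1.89 in HL1002P and by 2.21 and 1.28 in HH, opposite in sign to Cd9.

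Among osteoclast and fusion genes, which share Atp6v0d2 with lipid-associated macrophages, Ctsk (cathepsin K) was lower by a log2 fold change of -1.32 in HL1002P (adjusted p = 0.017) and -1.16 in HH (adjusted p = 0.0346), while the transcription factor Nfatc1 was higher by 0.98 in HL1002P (adjusted p = 0.00775) and 0.97 in HH (adjusted p = 0.0113). Of 7 fibroblast markers, 3 were lower in HL1002P fat and 2 in HH fat, and none was higher. Their median log2 fold change was -1.51 in HL1002P and -1.32 in HH. The part of fibroblasts in the values of Ctsk, Mmp2 and Timp1 was not tested. Of the 4 MiT transcription factor genes, which control lysosomal genes and Gpnmb, Tfec was higher by 1.48 in HL1002P and 1.72 in HH, and Tfeb by 0.69 in HL1002P and 0.74 in HH. Mitf averaged 12.4 CPM in HL1002P, 13.7 CPM in HH and 14.9 CPM in WT fat and did not pass (adjusted p = 0.349 for HL1002P and 0.690 for HH). Among the beta 2 integrin genes, Itgal was higher by 2.17 in HL1002P and 1.98 in HH, and Itgb2, whose product pairs with that of Itgax, by 0.99 in HL1002P and 0.96 in HH. Itgad was lower in HL1002P by a log2 fold change of -5.34 ± 1.58 (adjusted p = 0.0275), at a mean of 2.29 CPM in HL1002P and 93.1 ± 101 CPM in WT, where the libraries varied as much as their mean.

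Between HL1002P and HH fat, 0 of 8 members passed and 0% of all genes did by edgeR, although 535 genes (3.29%) had an unadjusted p under 0.05 and DESeq2 called 21 genes. Atp6v0d2 had the widest difference, with 3.56 ± 1.86 CPM in HL1002P and 1.53 ± 0.743 CPM in HH fat (SD, n = 4 each; log2 fold change 1.21 ± 0.49, adjusted p = 0.999). Trem2 differed by 1.03 ± 0.56, Spp1 by 0.61 ± 0.61 and Mmp12 by 0.42 ± 0.62, and the others by 0.15 or less in size. At these errors a difference of the size of the change in Lgals3 against WT was not detectable for Trem2, Spp1, Mmp12 or Atp6v0d2. That of Atp6v0d2 was of about this size and did not pass. Whether it was detectable for the other members was not tested.

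Across the 12 fat libraries Atp6v0d2 was the gene whose log2 CPM followed Trem2 most closely among 14347 genes, with a Pearson r of 0.96, and of 0.84 after the genotype means were subtracted. Gpnmb followed with r = 0.89 (rank 27), Lgals3 with 0.88 (rank 33) and Mmp12 with 0.84 (rank 167), whereas the values were lower for Itgax (0.33), Spp1 (0.22) and Cd9 (0.20). This likeness was examined after the data were seen, and the libraries share the genotype difference and the spread in lymphocyte content. Spp1 had r between -0.20 and 0.28 with the other members in fat. After the genotype means were subtracted r was 0.60 with Mmp12, 0.49 with Gpnmb, 0.39 with Atp6v0d2 and 0.34 with Trem2, and between -0.23 and 0.17 with Itgax, Lgals3 and Cd9. Genes most like it there were Dak (0.81), H2-Q10 (0.79), Rpgr (0.78) and Sycp2 (0.78), and after the genotype means were subtracted r was 0.81 for Dak, 0.81 for H2-Q10, 0.80 for Rpgr and 0.88 for Sycp2.

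**Figure D3:**
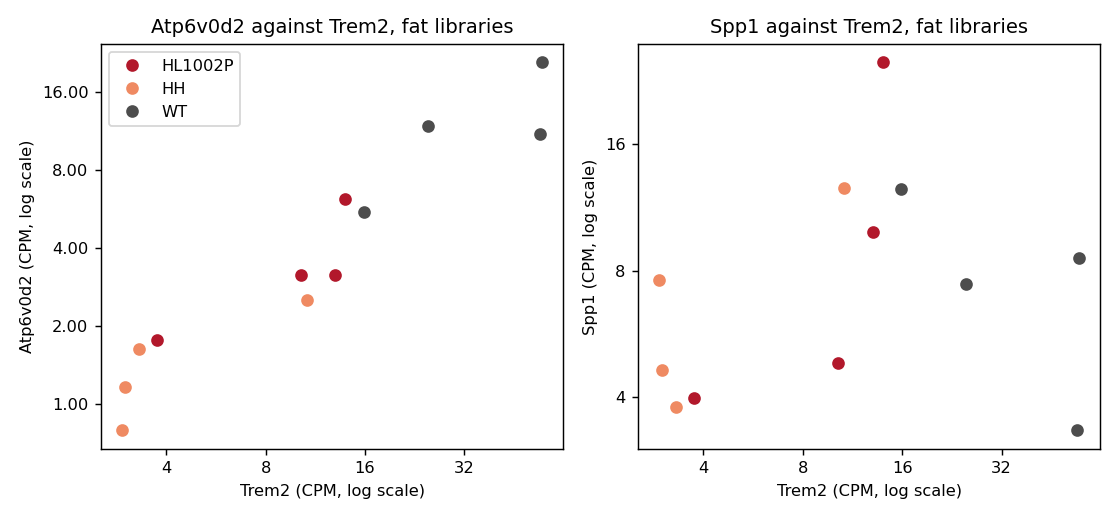
Atp6v0d2 (left) and Spp1 (right) against Trem2 in the 12 fat libraries, in CPM on log axes, with 1 point per library and the genotypes in different markers. Atp6v0d2 tracked Trem2 both between and within genotypes (r = 0.96, and 0.84 within), and Spp1 less so (r = 0.22, and 0.34 within).

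In muscle the mean levels of Spp1, Lgals3, Gpnmb, Cd9 and Itgax were higher in both mutant genotypes than in WT. Spp1, whose level chose the set, had 10.97, 8.91, 10.95 and 8.597 CPM in HL1002P and 6.49, 8.65 and 6.74 CPM in HH muscle, against 4.29, 5.35, 4.56 and 6.14 CPM in WT muscle, from 176 to 473 counts per library. Every mutant library was above every WT library, and HL1002P and HH overlapped. The log2 fold change was 0.95 ± 0.16 in HL1002P and 0.52 ± 0.17 in HH. In the fit over all 14580 genes 1 of 8 members, Spp1, was past the threshold in HL1002P (0.117% of all genes) and 0 of 8 in HH (0.377%). Nothing is read from these counts, since this contrast chose Spp1.

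**Figure D4:**
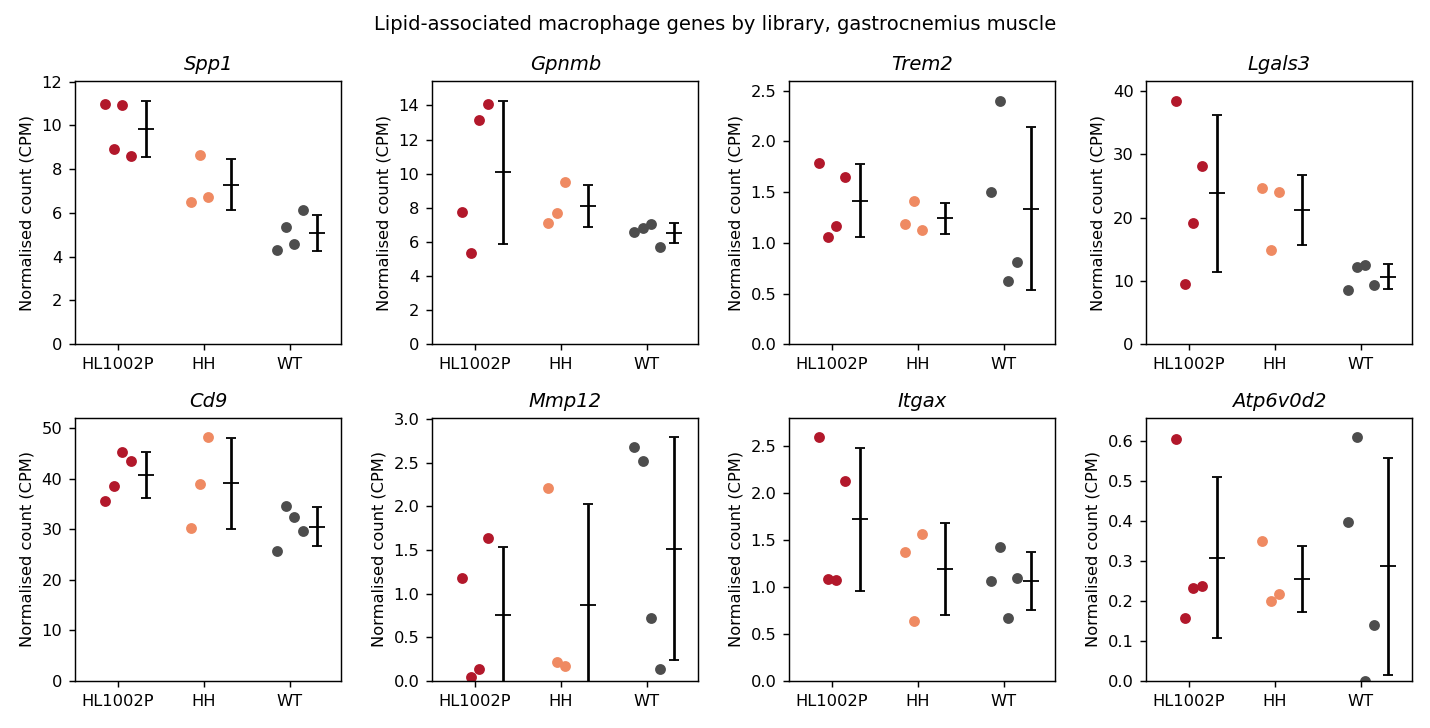
Level in CPM of each of the 8 members in the 11 muscle libraries, with 1 point per library (4 HL1002P, 3 HH, 4 WT) and the bar giving the mean ± SD, which for Mmp12 is drawn from 0 upwards. Spp1 was higher in all 7 mutant libraries than in the 4 WT libraries, and Trem2, Mmp12, Itgax and Atp6v0d2 were under 3 CPM in every library.

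Lgals3 had 38.5, 9.48, 19.2 and 28.1 CPM in HL1002P and 24.7, 14.9 and 24.0 CPM in HH muscle, against 8.54, 12.2, 12.6 and 9.37 CPM in WT muscle. HL1002P replicate 2 lay among the WT libraries, the other mutant libraries above them, and the log2 fold change was 1.16 ± 0.34 in HL1002P and 0.99 ± 0.36 in HH. Gpnmb had 7.75, 5.33, 13.1 and 14.1 CPM in HL1002P and 7.12, 7.70 and 9.49 CPM in HH muscle, against 6.59, 6.79, 7.03 and 5.72 CPM in WT muscle, and HL1002P replicate 2 was the lowest of all. Its log2 fold change was 0.63 ± 0.26 in HL1002P and 0.31 ± 0.28 in HH; in the male libraries alone the HL1002P value was -0.047, and with the macrophage markers as a covariate the HH value was 0.0002. Cd9 had 35.5, 38.5, 45.3 and 43.6 CPM in HL1002P and 30.2, 38.9 and 48.2 CPM in HH muscle, against 25.6, 34.5, 32.4 and 29.6 CPM in WT muscle, with a log2 fold change of 0.42 ± 0.15 in HL1002P and 0.36 ± 0.16 in HH. For Cd9 the HL1002P libraries were all above WT and the HH libraries overlapped it. No overlap with WT was seen for 2 members in HL1002P, Spp1 and Cd9, as for 3.09% of genes. In HH there was none for 3 members, Spp1, Gpnmb and Lgals3, as for 7.38% of genes. Spp1 stands in both counts by its choice, so nothing is read from them.

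The core genes of the state were scarce in muscle. Trem2 averaged 1.42 ± 0.356 CPM in HL1002P, 1.24 ± 0.150 CPM in HH and 1.34 ± 0.806 CPM in WT muscle (SD, n = 4, 3 and 4), from 24 to 138 counts per library. Itgax averaged 1.72 ± 0.763 CPM in HL1002P, 1.19 ± 0.489 CPM in HH and 1.06 ± 0.308 CPM in WT, from 26 to 117 counts. Mmp12 ranged over 0.0451 to 1.64 CPM in HL1002P, 0.173 to 2.21 CPM in HH and 0.140 to 2.68 CPM in WT, from 2 to 145 counts, and Atp6v0d2 over 0.158 to 0.605 CPM in HL1002P, 0.199 to 0.349 CPM in HH and 0 to 0.610 CPM in WT, from 0 to 35 counts. All 4 overlapped between genotypes. The WT library with 0 counts of Atp6v0d2 allows a level of up to 0.0778 CPM (3 counts), a bound that covers counting error only.

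Of 18 macrophage markers, none passed in mutant muscle. Their median log2 fold change was 1.09 in HL1002P and 0.64 in HH, and their summed level was 161 to 482 CPM in HL1002P, 208 to 302 CPM in HH and 91.3 to 204 CPM in WT muscle. Tyrobp averaged 7.25 ± 3.70 CPM in HL1002P, 5.24 ± 2.16 CPM in HH and 3.38 ± 1.12 CPM in WT, and Cd68 8.43 ± 3.85 CPM in HL1002P, 5.86 ± 1.26 CPM in HH and 3.78 ± 0.857 CPM in WT (SD, n = 4, 3 and 4). The osteopontin receptor Cd44 averaged 9.28 ± 1.53 CPM in HL1002P, 10.1 ± 1.89 CPM in HH and 5.47 ± 1.21 CPM in WT muscle and did not pass. Of 10 myogenic markers, a list that holds the myosin genes Myh3 and Myh8 beside precursor genes such as Pax7, 0 passed. Their summed level was 271 to 585 CPM in HL1002P, 261 to 535 CPM in HH and 189 to 241 CPM in WT muscle. Bone and cartilage markers summed to 13.8 to 17.5 CPM in HL1002P, 14.5 to 17.7 CPM in HH and 12.4 to 19.0 CPM in WT muscle. With the macrophage markers as a covariate the log2 fold change of Lgals3 came to 0.44 in HL1002P and 0.50 in HH. Over all alternatives, the macrophage covariate among them, that of Spp1 ranged over 0.88 to 1.06 in HL1002P and 0.38 to 0.65 in HH. Nothing is read from this range, since the contrast with WT muscle chose Spp1. The part of the myogenic markers in the level of Spp1 was not tested.

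**Figure D5:**
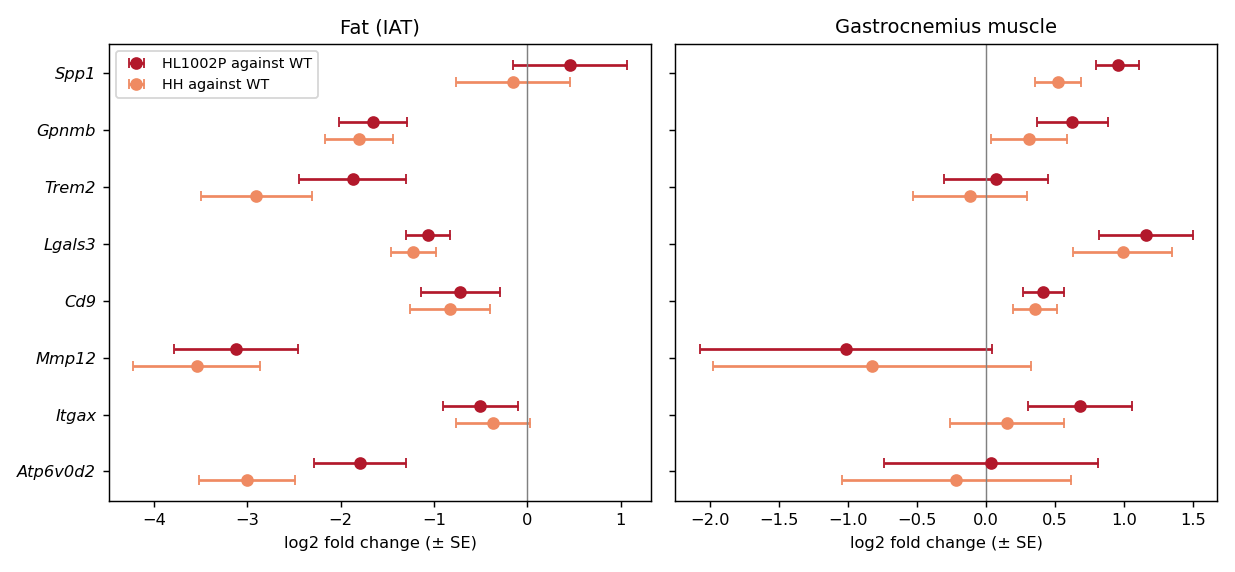
Log2 fold change ± SE of the 8 members in HL1002P and HH against WT, in fat (left) and muscle (right), from fits with 4 libraries per genotype (3 for HH muscle). Gpnmb and Lgals3 lay below 0 in fat (-1.80 and -1.22 in HH) and above 0 in muscle (0.31 and 0.99 in HH). Spp1 lay within its error of 0 in fat. Its muscle values (0.95 and 0.52 in HL1002P and HH) are a description only, since they chose Spp1.

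Between HL1002P and HH muscle 0 of 8 members passed, as against 0.0206% of all genes (3 genes, with 670 genes, 4.60%, at an unadjusted p under 0.05). Spp1 averaged 9.86 ± 1.28 CPM in HL1002P (n = 4) and 7.29 ± 1.18 CPM in HH (n = 3), a log2 fold change of 0.43 ± 0.17 (adjusted p = 0.988 by edgeR). Itgax differed by 0.53 ± 0.41 and Gpnmb by 0.32 ± 0.28, neither past the test.

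Across the 11 muscle libraries genes most like Spp1, of 12143, were Hypk (Pearson r = 0.92), Bloc1s6 (0.89), Pla2g4e (0.89) and Eid1 (0.89), none of them on the macrophage lists. After the genotype means were subtracted r was 0.67 for Hypk, 0.78 for Bloc1s6, 0.48 for Pla2g4e and 0.60 for Eid1. These 4 lie on chromosome 2 within 7.07 Mb of Bub1b, the mutated gene. Of the members Cd9 came nearest (r = 0.66, and 0.15 within genotypes), then Lgals3 (0.58), Gpnmb (0.45), Itgax (0.36) and Trem2 (0.22), with Mmp12 at -0.43. The libraries share the genotype difference that chose Spp1, so these values describe it and carry no test.

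Between the tissues of WT mice, 7 of 8 members were lower in muscle than in fat, where 41.6% of all genes were lower and 73.5% differed in either direction. The log2 fold change, WT muscle against WT fat, was -4.44 ± 0.997 for Mmp12 (adjusted p = 0.000513), -4.20 ± 0.45 for Itgax (7.87e-08), -4.13 ± 0.72 for Atp6v0d2 (3.72e-05) and -3.55 ± 0.55 for Trem2 (8.97e-06). Lgals3 (-3.19 ± 0.33, adjusted p = 5.11e-08), Gpnmb (-2.94 ± 0.36, 3.92e-07) and Cd9 (-1.37 ± 0.34, 0.00141) were also lower. Spp1 did not pass, at 0.59 ± 0.47 (adjusted p = 0.263). This value kept its sign in 16 of 16 alternative fits, from 0.31 to 0.90, while the order of the mean levels depended on the scaling. Scaled jointly over both tissues, as in the fit, Spp1 averaged 8.05 CPM in WT muscle and 5.33 CPM in WT fat. Scaled within each tissue, as are all other levels given here, it averaged 5.09 CPM in WT muscle and 7.97 CPM in WT fat. Levels scaled within each tissue are not on a common scale between tissues. Of 18 macrophage markers 17 were lower in WT muscle, and the members' median was -3.37 against -0.30 over all genes.

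Per exon length, as RPKM, a CPM divided by exon length in kilobases, the order of the members differed between tissues; these levels are scaled within each tissue and serve to order genes there. In WT muscle Cd9 (14.9 RPKM), Lgals3 (5.74), Spp1 (3.09) and Gpnmb (1.003) came first, each apart from the next, and Trem2 (0.270), Itgax (0.222), Mmp12 (0.210) and Atp6v0d2 (0.106) overlapped. In WT fat Lgals3 (125 RPKM) and Cd9 (91.5) overlapped and stood above Gpnmb (18.2), followed by Mmp12 (10.95), Itgax (9.74), Trem2 (7.59), Spp1 (4.84) and Atp6v0d2 (4.54), each overlapping its neighbour. In mutant fat Lgals3 (59.5 RPKM in HL1002P and 53.5 in HH) and Cd9 (55.6 and 51.4) kept the top places. Mmp12 was last in HL1002P at 1.26 RPKM and last but one in HH at 0.932 RPKM, while Spp1, at 6.63 and 4.34 RPKM, stood above Trem2, at 2.07 and 1.01 RPKM.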

How the data were processed

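Raw gene counts of 23 libraries, as the authors deposited them, were the starting point; per the submitters' processing notes reads were handled with TopHat2 2.0.14, Bowtie2 2.2.6 and featureCounts 1.4.6 on mm10, and the annotation and strand setting are not given in the sources used here. Counts were fitted per tissue over all 3 genotypes with edgeR 4.0.16 (TMM, filterByExpr, quasi-likelihood test, adjusted p under 0.05) in R 4.3.3, and the tissues in 1 fit of 23 libraries. Correlations used log2 CPM with a prior count of 2 over genes averaging at least 1 CPM. RPKM used GENCODE exon lengths. limma 3.58.1 and DESeq2 1.42.0 served as alternatives, and scripts were tested on simulated data. The members and the 28 gene lists were chosen with earlier results of these data known. Named genes are the members, their partners, the 5 genes most like Spp1 in each tissue (1 of each 5 is not reported here), and of each list at most 3 past the test with the largest change; the choice of Epcam and of the genes like Trem2 followed a look at their values. Same-numbered samples count as paired (every pair correlated above 0.1) only between HL1002P and HH muscle (r 0.217 to 0.286), where the block left the number of called genes at 3. Muscle libraries of the same number also share sex by sex-linked transcripts, so that pairing and sex cannot be told apart there. The SD and SE given after ± reflect the spread between libraries, and the floor covers counting error only.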

Additional observations from a re-analysis of the deposited data

Results flagged for a closer look

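Of 40 sets of 4 libraries examined, 2 held a library far from the others, and chance gives about 1 in 20. Cd9 was at 202 CPM in HL1002P fat replicate 4, against 80.2 to 90.8 CPM in the other HL1002P fat libraries; the same library held 129.8 CPM of Epcam. Trem2 was at 10.7 CPM in HH fat replicate 1, against 2.94 to 3.31 CPM in the other HH fat libraries.

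Gpnmb and Lgals3 had log2 fold changes of opposite sign in the 2 tissues of HH mice. Every HH library lay on one side of every WT library in each tissue. For Gpnmb in muscle the lowest HH library was at 7.12 CPM and the highest WT library at 7.03 CPM. Of all genes, 7.38% were higher without overlap in HH muscle and 10.9% lower in HH fat. Against WT, Gpnmb was at 0.31 ± 0.28 (SE) in muscle and -1.80 ± 0.36 in fat. Lgals3 was at 0.99 ± 0.36 in muscle and -1.22 ± 0.24 in fat. With the macrophage markers as a covariate the muscle values came to 0.0002 for Gpnmb and 0.50 for Lgals3. The difference between the tissues was not tested.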

How the results depend on the processing

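Gpnmb, Trem2, Lgals3, Mmp12 and Atp6v0d2 kept their sign in both mutant fats under every alternative run. The counts of calls moved more. With the B and T cell markers as a covariate, 0 genes and 0 members passed against WT in HL1002P or HH fat, and 2 genes passed between HL1002P and HH fat. For genes in HH against WT fat the count was 5155 with DESeq2, 842 with the macrophage covariate, 5505 without the libraries rich in Acta1 and 6246 in the libraries with Y-linked transcripts (males) alone. Between HL1002P and HH fat it was 21 with DESeq2, 3 with the macrophage covariate and 1 with the compared groups alone. In HL1002P against WT muscle it was 179 with DESeq2 (2 members), 9 with limma voom, 11 with the stricter filter, 6 with the macrophage covariate, 8 with the compared groups alone and 2 with Y-linked libraries alone; 0 members passed in each of these but DESeq2, and 0 with the sex covariate. In HH against WT muscle it was 628 with DESeq2, 225 with the sex covariate, 30 with the macrophage covariate, 85 with the compared groups alone and 6 with Y-linked libraries alone, and in HL1002P against HH muscle 40 with DESeq2. The cause was not tested.

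Leaving out 1 library gave 2023 to 7018 genes and 3 to 5 members in HL1002P against WT fat, 829 to 4170 genes and 5 members in HH against WT fat, 3 to 13 genes and 0 members in HL1002P against WT muscle, 21 to 133 genes in HH against WT muscle, 3 to 7 in HL1002P against HH muscle, and 0 in HL1002P against HH fat. The replicate number was also used as a block, although only HL1002P and HH muscle met the rule for pairing. In muscle this number goes with sex. With the block HH against WT muscle had 203 genes, HL1002P against WT muscle lost the call of Spp1 (0 members), and the fat counts stayed at 5 members each.

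Tested values that turned sign were all of members past no test. Spp1 in HH against WT fat was 0.38 with the lymphocyte covariate, 0.25 in Y-linked libraries and 0.54 without the libraries rich in Epcam, and without 1 library it ranged over -0.56 to 0.15. Spp1 in HL1002P against WT fat ranged over -0.32 (without HL1002P replicate 3) to 0.78. Between HL1002P and HH fat, Itgax was 0.048 with voom, 0.27 with the macrophage covariate and 0.44 without the Epcam libraries. In the same comparison Cd9 was -0.0058 with the sex covariate, -0.084 with the macrophage covariate, -0.45 without the Acta1 libraries and -0.19 in Y-linked libraries. Lgals3 was -0.0037 there in Y-linked libraries, and Gpnmb -0.023 without the Epcam libraries. Between HL1002P and HH muscle, Mmp12 was 0.53 with the sex covariate, Lgals3 -0.067 with the macrophage covariate and Gpnmb -0.19 in Y-linked libraries. Without 1 library, values between HL1002P and HH fat ranged over -0.18 to 1.04 for Spp1, -0.098 to 0.42 for Gpnmb, -0.30 to 0.29 for Cd9 and -0.38 to 0.51 for Itgax. Those between HL1002P and HH muscle ranged over -0.16 to 0.43 for Lgals3, -0.095 to 0.24 for Cd9, -0.98 to 1.93 for Mmp12 and -0.27 to 0.54 for Atp6v0d2. With 2 to 145 counts of Mmp12 and 0 to 35 of Atp6v0d2 per muscle library, depth limits what these muscle values can show.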

Other observations

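Of 11 resident macrophage markers, 2 were higher and 9 did not pass in each mutant fat. Their median log2 fold change was -0.15 in HL1002P, where 7 of 11 were below 0, and 0.12 in HH, where 3 of 11 were. Timd4, a receptor for dying cells, was higher in HL1002P (185 ± 96.9 CPM) and HH (268 ± 94.3 CPM) than in WT fat (22.7 ± 14.3 CPM; SD, n = 4 each), with edgeR adjusted p = 0.0097 and 0.0114. Lyve1, the hyaluronan receptor of perivascular macrophages and lymphatic vessels, was higher too, at 85.6 ± 39.6 CPM in HL1002P and 93.7 ± 39.5 CPM in HH against 20.3 ± 5.64 CPM in WT fat (edgeR adjusted p = 0.00883 and 0.0116). Of 10 dendritic cell markers 6 were higher in each mutant genotype, with medians of 1.18 and 1.19, and their summed level was 476 to 634 CPM in HL1002P, 453 to 785 CPM in HH and 268 to 336 CPM in WT fat. Lymph nodes also hold Timd4-, Lyve1- and dendritic marker-expressing cells, and the lymph node stroma markers moved with them; their part was not tested.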
